A study of Mus musculus with 4 samples.

Results

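The cells described here are CD8 T cells of B16-GP33 melanomas in which Tcf7 and Pdcd1 transcripts were both detected, the combination by which progenitor exhausted CD8 T cells are usually recognised. They were 290 of 25954 kept cells. A cell was taken as a CD8 T cell if it held at least 1 UMI (unique molecular identifier, a tag that marks 1 captured RNA molecule) of Cd3d, Cd3e or Cd3g, at least 1 of Cd8a or Cd8b1, and none of Cd4 or Foxp3. Cells with 3 or more UMIs of the division genes Mki67 and Top2a, or 3 or more of Gzmc to Gzmg, were left out, so dividing cells and cells rich in these granzymes are absent by construction. Of the 4465 cells that passed this gate, those with at least 1 UMI of Tcf7 and at least 1 of Pdcd1 were selected, and the levels of all of these genes in the selected cells follow from the rule.

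Live CD45.2+ cells (CD45.2 marks leukocytes, and propidium iodide excluded dead cells) were sorted from subcutaneous tumours of C57BL/6 mice and profiled by droplet single-cell RNA sequencing on the 10x Genomics platform. B16-GP33 is a mouse melanoma line carrying GP33, a viral peptide seen by CD8 T cells. Mice received IgG as the control, anti-PD-1 alone, anti-PSGL-1 alone, or the pair of antibodies together (the combination). Each antibody was dosed at 200 ug on days 8, 10 and 12 after tumour injection, and tumours were taken on day 18. PD-1 and PSGL-1 are surface receptors reported to restrain T cells. All 4 groups thus carried the same tumour and received injections on the same days; age, sex and the number of animals behind a library are not given in the labels. Each group was 1 library, so no difference between groups has a replicate check, and every interval below is an exact 95% interval that covers counting error only. Sets of 4 values follow the order in which the treatments were just named.

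Progenitor exhausted CD8 T cells are the self-renewing part of a T cell response to persistent antigen. They keep TCF-1, the transcription factor encoded by Tcf7, together with PD-1, encoded by Pdcd1, and they give rise to terminally exhausted cells that lose TCF-1 and gain further inhibitory receptors such as TIM-3 (Havcr2) and cytotoxic proteins. They are known as the cells from which the response to PD-1 blockade grows. Naive and resting memory CD8 T cells carry TCF-1 as well, but little PD-1.

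The gated cells numbered 1655, 668, 1125 and 1017 in the 4 libraries, and 103, 29, 99 and 59 of them carried both transcripts. The libraries held 27270 barcodes with between 40913129 and 53303195 UMIs each. In the Tcf7+ Pdcd1+ cells the median depth was 4521, 6134, 6005 and 5972 UMIs per cell, so the IgG cells were the shallowest. The anti-PD-1 library rests on 210954 UMIs of such cells, the fewest of the 4. Between 5 and 13 barcodes were shared by any pair of libraries among kept cells, and none among the Tcf7+ Pdcd1+ cells.

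The rule genes were thin in most cells. Tcf7 (ENSMUSG00000000782, chromosome 11, 52252371 to 52283014 in mm10, protein coding) stood at exactly 1 UMI in 67 of 103, 18 of 29, 58 of 99 and 36 of 59 cells. Its highest count in a cell was 6, 5, 4 and 5 UMIs. Pdcd1 (ENSMUSG00000026285, chromosome 1, 94038305 to 94052553) had a median of 2, 2, 3 and 3 UMIs. As a background, macrophages (no UMI of the Cd3 or Cd8 genes and at least 10 UMIs of macrophage markers) held Tcf7 in 0.717%, 0.659%, 0.605% and 0.274% of cells and Pdcd1 in 0.943%, 2.12%, 1.73% and 3.02%, at median depths of 4860.5, 6428, 6855.5 and 8101 UMIs. Slamf6, encoding the receptor Ly108 and the only marker of the label that the rule did not use, was detected in 23 of 103, 8 of 29, 32 of 99 and 22 of 59 Tcf7+ Pdcd1+ cells, against 4.15%, 6.63%, 3.98% and 6.10% of macrophages.

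Part of the selected cells went against the label. Transcripts of 27 marker genes of macrophages, dendritic and other antigen-presenting cells, neutrophils and B cells reached 10 or more UMIs in 45 of 103 IgG cells (43.7%), 4 of 29 anti-PD-1 cells (13.8%), 17 of 99 anti-PSGL-1 cells (17.2%) and 0 of 59 combination cells, which at a floor of 3 counts allows a share of up to 5.08% there. These cells are called mixed cells below; the threshold of 10 UMIs was chosen after seeing the data. The highest sum in a cell was 653, 438, 890 and 8 UMIs. Cd74, the invariant chain of MHC class II, stood at 3034, 1413, 1666 and 24.1 CPM (UMIs of the gene for each 1000000 UMIs of the summed cells) over all selected cells and at 131, 40.6, 66.2 and 24.1 CPM without mixed cells. The 10 macrophage and monocyte markers together stood at 2081, 474, 719.9 and 55.4 CPM and, without mixed cells, at 50.2, 74.4, 68.1 and 55.4 CPM, a drop that follows from the threshold; C1qc and Adgre1 were then at 0 in every library, and C1qa in all but anti-PSGL-1. Of the markers of NK and innate-like T cells, which did not enter the threshold, 5 were measured, and together they stood at 107, 473, 159 and 183 CPM without mixed cells, highest under anti-PD-1; their part in the results was not tested. Mixed cells were deep in 2 libraries, with medians of 15782 and 15113 UMIs under anti-PD-1 and anti-PSGL-1, and not in IgG, with 4759 UMIs. Whether they are pairs of cells in 1 droplet was not tested. Results are therefore given with and without them, and the cells are called by their rule, Tcf7+ Pdcd1+ CD8 T cells.

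**Figure D1:**
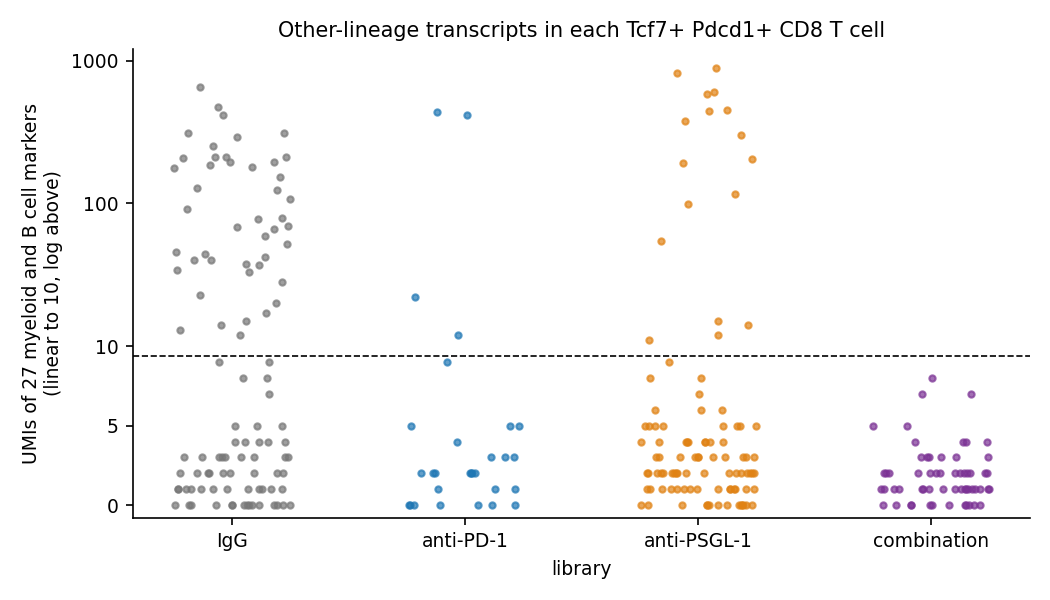
Summed UMIs of 27 macrophage, dendritic cell, neutrophil and B cell marker genes (vertical axis, linear up to 10 and logarithmic above) in each Tcf7+ Pdcd1+ CD8 T cell (1 point per cell, spread sideways at random) of the 4 libraries. The dashed line separates cells with 10 or more UMIs, which were 45 of 103 with IgG and 0 of 59 with the combination.

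Tcf7+ Pdcd1+ cells made up 6.22% (5.11 to 7.50), 4.34% (2.93 to 6.18), 8.80% (7.21 to 10.6) and 5.80% (4.45 to 7.42) of the gated CD8 T cells. The anti-PSGL-1 share was the highest, and its interval did not overlap that of the anti-PD-1 library. Without mixed cells the shares were 5.49%, 4.17%, 8.53% and 6.27%, in the same order of size except that the combination stood above IgG. Depth weighs on a share that needs a UMI of 2 sparse genes. When every cell was thinned to 2000 UMIs before the whole rule was applied, the shares were 2.21%, 1.20%, 2.23% and 0.754%, so that the combination took the lowest place and IgG lay beside anti-PSGL-1. Thinning left out 132, 20, 23 and 21 gated cells of lower depth. It also let in cells that passed the limits of the gate only after thinning. The gated cells then numbered 1583, 835, 1254 and 1327. With the gate kept at full depth and only Tcf7 and Pdcd1 thinned, the shares were 2.23%, 1.39%, 2.90% and 1.00%. The combination was again lowest, and IgG lay below anti-PSGL-1 with overlapping intervals. The place of the combination therefore depended on depth, while anti-PD-1 lay below IgG and anti-PSGL-1 at both depths. Its distance from IgG also depended on the gate. Without the limit on dividing and granzyme-rich cells the combination interval lay below that of IgG, with the libraries in the same order.

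The 2 transcripts met in the same cell less often than their separate shares would give. Tcf7 was detected in 21.9%, 14.2%, 25.2% and 9.93% of gated cells and Pdcd1 in 52.4%, 73.4%, 63.9% and 83.6%. The product of these shares is 11.5%, 10.4%, 16.1% and 8.30%, and the observed share was 0.543, 0.416, 0.547 and 0.699 of it. Seen from the Tcf7+ side, Pdcd1 was detected in 28.5% (23.9 to 33.4), 30.5% (21.5 to 40.8), 35.0% (29.4 to 40.9) and 58.4% (48.2 to 68.1) of Tcf7+ CD8 T cells. The combination stood above the other 3 libraries on this measure, with an interval that overlapped none of theirs at full depth. Without mixed cells the values were 20.9%, 29.1%, 31.5% and 59.6%. Thinned to 2000 UMIs they were 17.4%, 21.7%, 20.3% and 28.6%, with the combination still highest, but its interval (14.6 to 46.3) rested on 10 cells and overlapped those of the other 3. Thinned to 4000 UMIs they were 32.0%, 23.1%, 27.4% and 60.3%, and the combination interval (48.1 to 71.5) overlapped none of the others. That depth left out 892, 123, 219 and 122 gated cells and let others in, so that 889, 667, 1040 and 1106 were gated. Seen from the Pdcd1+ side, Tcf7 was detected in 11.9%, 5.92%, 13.8% and 6.94% of Pdcd1+ CD8 T cells. The combination library thus held few Tcf7+ cells, 101 against 362, 95 and 283 in the others. Pdcd1 was detected in most Tcf7+ cells of the combination at full depth and at 4000 UMIs, but not at 2000 UMIs.

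**Figure D2:**
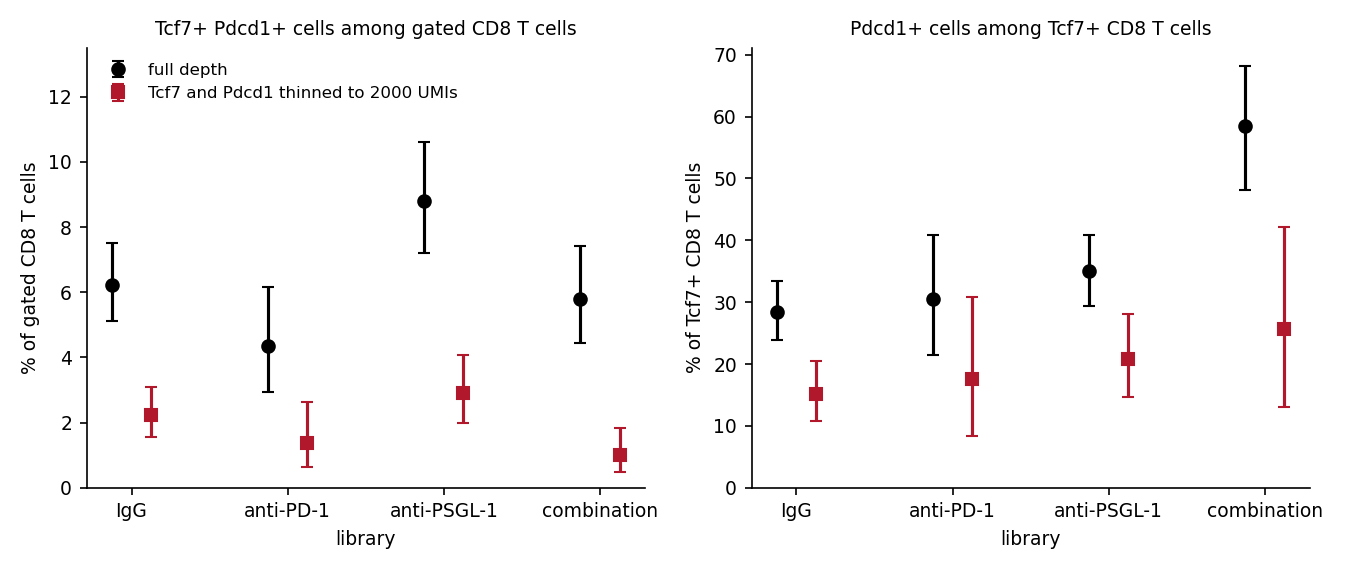
Percentage of gated CD8 T cells that were Tcf7+ Pdcd1+ (left) and percentage of Tcf7+ CD8 T cells that were Pdcd1+ (right) in each of the 4 libraries, at full depth (black circles) and with the same gated cells read at 2000 UMIs for Tcf7 and Pdcd1 (red squares); bars are exact 95% binomial intervals. At full depth the combination stands at 58.4% in the right panel, above the intervals of the other libraries; at 2000 UMIs the intervals overlap.

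The Tcf7+ Pdcd1+ cells were then set beside the 2636 gated CD8 T cells with Pdcd1 and no Tcf7, the class that holds terminally exhausted and effector cells. This contrast and the next are descriptions, because Tcf7 and Pdcd1 in the same cells chose the classes. A log2 ratio was taken within each library, and the mean and SD of the 4 ratios are given; a gene was counted if its ratio passed 1.5-fold the same way in all 4. Of 2669 genes at 50 CPM or more in either class, 54 (2.02%) were higher and 39 (1.46%) lower in the Tcf7+ Pdcd1+ cells. Without mixed cells the counts were 82 (3.08%) and 65 (2.44%) of 2661, and 46 and 34 genes were in both.

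Slamf6 (ENSMUSG00000015314, chromosome 1, 171917515 to 171953170) stood at 72.2, 66.4, 58.7 and 74.7 CPM in Tcf7+ Pdcd1+ cells and at 17.4, 10.6, 17.4 and 12.0 CPM in Tcf7- Pdcd1+ cells. It was higher in every library, by 2.27 ± 0.44 on the log2 scale (SD, n = 4 libraries), and by 2.54 ± 0.42 without mixed cells. At 2000 UMIs per cell and without mixed cells, Slamf6 was detected in 20.7%, 24.0%, 12.3% and 13.8% of Tcf7+ Pdcd1+ cells against 3.19%, 3.89%, 4.14% and 2.61% of Tcf7- Pdcd1+ cells. Xcl1, a chemokine that draws cross-presenting dendritic cells, stood at 264, 744, 511 and 304 CPM against 86.8, 116, 128 and 66.0 CPM. Its level rested on few cells: 87 of the 126 UMIs of the combination and 198 of the 418 of anti-PSGL-1 lay in 1 cell each. Without the highest cell of each library it stood at 246, 519, 275 and 97.5 CPM. Id3, a transcription regulator of memory-like T cells, was at 31.7, 23.7, 14.7 and 16.9 CPM against 8.44, 6.45, 7.39 and 3.53 CPM. These levels include mixed cells, and macrophages carry Id3 as well, in 21.8% to 32.8% of cells. Thinned to 2000 UMIs and without mixed cells, Id3 was detected in 3 of 58, 1 of 25, 3 of 81 and 2 of 58 Tcf7+ Pdcd1+ cells. In Tcf7- Pdcd1+ cells it was detected in 1 of 502, 1 of 411, 3 of 507 and 2 of 727. The direction was kept, but on few cells. Of the 12 genes of the progenitor list 6 were abundant enough to be measured, all 6 with a mean above 0, a median log2 ratio of 0.81 and 2 past 1.5-fold in every library. Over all genes the median was -0.08. The 2 were Slamf6 and Xcl1. Without its highest combination cell Xcl1 stood there at 97.5 against 66.0 CPM, short of 1.5-fold, so its place in the count rests on that cell. Among the other members of that list, Icos, a costimulatory receptor, was at 185, 161, 187 and 270.0 CPM against 164, 201, 137 and 246 CPM, with no common direction. Cxcr5, the follicle-homing receptor, was seen with 1, 1, 1 and 4 UMIs.

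Genes of naive and circulating T cells had the highest median of the 12 lists. Of the 14 listed, 10 were measured, 8 were higher in all 4 libraries and none lower, with a median log2 ratio of 1.82. Dapl1, a gene of quiescent T cells, stood at 199, 128, 58.7 and 67.5 CPM against 9.62, 4.13, 3.70 and 3.53 CPM, a log2 difference of 4.39 ± 0.41. S1pr1, the receptor by which T cells leave tissue, stood at 89.9, 99.5, 73.3 and 86.8 CPM against 18.3, 7.49, 17.4 and 19.4 CPM. For both genes the 4 values of the Tcf7+ Pdcd1+ cells did not overlap those of the other class. Il7r, the receptor for the survival cytokine IL-7, stood at 153, 322, 142 and 89.2 CPM against 39.6, 47.5, 31.0 and 19.4 CPM, highest under anti-PD-1 and lowest under the combination in both classes. Macrophages carry Il7r as well, in 16.2%, 32.1%, 20.2% and 20.3% of cells, also highest under anti-PD-1. Ccr7, the receptor for entry into lymph nodes, stood at 402, 683, 533 and 152 CPM against 113, 76.2, 157 and 28.4 CPM. Ccr7 is also abundant in migratory dendritic cells, and without mixed cells its values were 472, 453, 147 and 152 CPM, so the anti-PSGL-1 value rested largely on mixed cells. Emb, encoding the adhesion molecule embigin, stood at 440.5, 654, 402 and 542 CPM against 118, 96.8, 109.8 and 143 CPM. The integrin chain Itgb1, which is no naive cell gene, was higher as well, at 377, 384, 374 and 328 CPM against 125, 125, 149 and 141 CPM (log2 1.44 ± 0.20).

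Genes of terminal exhaustion and killing stood lower. Havcr2 was at 49.3, 4.74, 52.6 and 69.9 CPM against 121, 145, 136 and 139 CPM, with UMIs in 17, 1, 24 and 9 Tcf7+ Pdcd1+ cells; without mixed cells its UMIs were 8, 0, 27 and 29. Macrophages carry Havcr2 as well, in 23.9% to 31.0% of cells. Entpd1, encoding the ectoenzyme CD39, was at 24.7, 4.74, 37.9 and 19.3 CPM against 59.3, 75.6, 75.0 and 73.9 CPM. Lag3, an inhibitory receptor, was at 181, 171, 100.2 and 183 CPM against 295, 425, 218 and 447 CPM, lower by 1.11 ± 0.28 on the log2 scale. Of 12 inhibitory receptor genes 7 were measured, none higher and 3 lower in every library. Tox, the transcription factor that sustains exhaustion, was at 146, 80.6, 123 and 190.4 CPM against 281, 233, 270 and 271 CPM. The Tcf7+ Pdcd1+ cells therefore carried less Tox and Lag3 than the Tcf7- Pdcd1+ cells in each library, at levels well above the Tcf7+ Pdcd1- cells described below.

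Among cytotoxic genes 20 of 23 were measured, of which 1 was higher and 3 lower in all 4 libraries, with a median log2 ratio of -0.44; without mixed cells 1 was higher and 6 lower. Prf1, encoding perforin, stood at 74.0, 42.7, 62.3 and 130.2 CPM against 173, 412, 176 and 397 CPM. Gzmb, encoding granzyme B, stood at 287, 166, 457 and 1237 CPM against 814, 1756, 940 and 2198 CPM. Gzmk, encoding granzyme K, had no common direction, at 65.2, 114, 122 and 256 CPM against 155, 107, 151 and 236 CPM (log2 -0.34 ± 0.64). The 1 higher gene of the list, Lamp1, encodes a membrane protein of lysosomes and granules. Cxcr6, a receptor of tissue-resident T cells, stood at 109, 94.8, 226 and 253 CPM against 417, 553, 473 and 562 CPM. Serpinb9b, encoding a protease inhibitor, was scarce, with 1, 2, 2 and 2 UMIs in Tcf7+ Pdcd1+ cells (1.76, 9.48, 2.44 and 4.82 CPM) against 42.2, 55.2, 25.3 and 79.3 CPM. Glycolysis and hypoxia genes, 13 measured of 15, had means below 0 for all 13, with a median of -0.46, and none passed 1.5-fold in all libraries. Gapdh, a glycolytic enzyme, was lower by 0.51 ± 0.11 on the log2 scale. Other lists lay nearer to the median of all genes: 0.50 for T cell receptor response, 0.24 for cytokine receptors, 0.20 for homing and residence, 0.14 for type I interferon response, -0.04 for dissociation stress, -0.34 for exhaustion and effector factors and -0.38 for S phase and growth.

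Against the 551 CD8 T cells with Tcf7 and no Pdcd1, the class that holds naive and resting memory cells, the direction of most lists turned. Of 2594 genes, 67 (2.58%) were higher and 14 (0.540%) lower in Tcf7+ Pdcd1+ cells, and without mixed cells 76 (3.03%) and 14 (0.557%) of 2512, of which 46 and 9 were shared. The 42 cells and few UMIs of the combination library limit this contrast. All 13 measured exhaustion and effector factors had a mean above 0 (median 1.01), and 5 passed 1.5-fold in every library. Tox stood at 37.0, 36.3, 28.5 and 58.9 CPM in Tcf7+ Pdcd1- cells, below the 146, 80.6, 123 and 190.4 CPM of Tcf7+ Pdcd1+ cells in every library (log2 1.73 ± 0.43). Lag3 stood at 18.5, 22.3, 8.56 and 18.4 CPM, a difference of 3.27 ± 0.25. Nr4a2, a factor induced by T cell receptor signalling, stood at 414, 484, 378 and 479.7 CPM against 178, 184, 141 and 188 CPM, a difference of 1.35 ± 0.09.

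Among the single genes, Tnfrsf4, encoding the costimulatory receptor OX40, stood at 268, 213, 248 and 229 CPM against 23.4, 39.0, 9.51 and 29.5 CPM. It is also 1 of the 5 markers of conventional CD4 and regulatory T cells, which together stood at 321, 265, 303 and 287 CPM against 43.9, 72.5, 27.6 and 51.5 CPM. In Tcf7- Pdcd1+ cells these markers stood at 311, 270, 312 and 237 CPM, near the level of the Tcf7+ Pdcd1+ cells. In Tcf7+ Pdcd1+ cells the helper cell gene Cd40lg was at 0 under anti-PD-1 and the combination, and the part of such cells in the contrast was not tested. Tnfrsf9, encoding 4-1BB, stood at 342, 232, 282 and 359 CPM against 65.3, 80.9, 32.3 and 22.1 CPM, and lay below the 513 to 663 CPM of Tcf7- Pdcd1+ cells. Nrgn, encoding the calmodulin-binding protein neurogranin, was nearly absent from Tcf7+ Pdcd1- cells, at 2.92, 2.79, 2.85 and 0 CPM, and stood at 194, 90.1, 78.2 and 113 CPM in Tcf7+ Pdcd1+ cells. Xcl1 was higher here too (57.5, 148, 184 and 95.7 CPM in Tcf7+ Pdcd1- cells; log2 1.92 ± 0.41), but without its highest cell the combination, at 97.5 CPM, lay beside the 95.7 CPM of Tcf7+ Pdcd1- cells. At 2000 UMIs and without mixed cells Xcl1 was detected in 31.0%, 24.0%, 22.2% and 12.1% of Tcf7+ Pdcd1+ cells against 6.07%, 11.7%, 12.6% and 15.4% of Tcf7+ Pdcd1- cells, so the combination did not share the direction of the other libraries. Slamf6 did not separate these classes, at 70.2, 83.7, 55.2 and 121 CPM in Tcf7+ Pdcd1- cells (log2 -0.23 ± 0.37, and 0.08 ± 0.71 without mixed cells). Gzmk was higher in Tcf7+ Pdcd1+ cells, against 26.3, 58.6, 26.6 and 84.7 CPM. Glycolysis genes had means above 0 for all 11 measured (median 0.66), with Gapdh at 0.73 ± 0.22.

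Naive cell genes stood lower, with a median of -1.17 over 11 measured and 4 past 1.5-fold in all libraries. Satb1, a chromatin organiser of naive T cells, stood at 176, 289, 108 and 162 CPM against 627, 647, 617 and 519 CPM. Klf2, a factor that drives S1pr1, stood at 167, 94.8, 236 and 164 CPM against 555, 477, 400 and 243 CPM. The survival gene Bcl2 stood at 91.6, 80.6, 148 and 118 CPM against 288, 284, 286 and 221 CPM. For Satb1 the Tcf7+ Pdcd1+ cells lay between the 2 neighbouring classes, since it stood at 51.8, 55.8, 44.7 and 59.1 CPM in Tcf7- Pdcd1+ cells. Elovl6, a fatty acid elongase, stood at 15.9, 14.2, 8.56 and 12.1 CPM against 79.9, 86.5, 62.8 and 44.2 CPM. Icos, Cxcr5, Klf2 and some genes of the plots were given in contrasts where the naming rule did not pick them, after their values were seen.

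**Figure D3:**
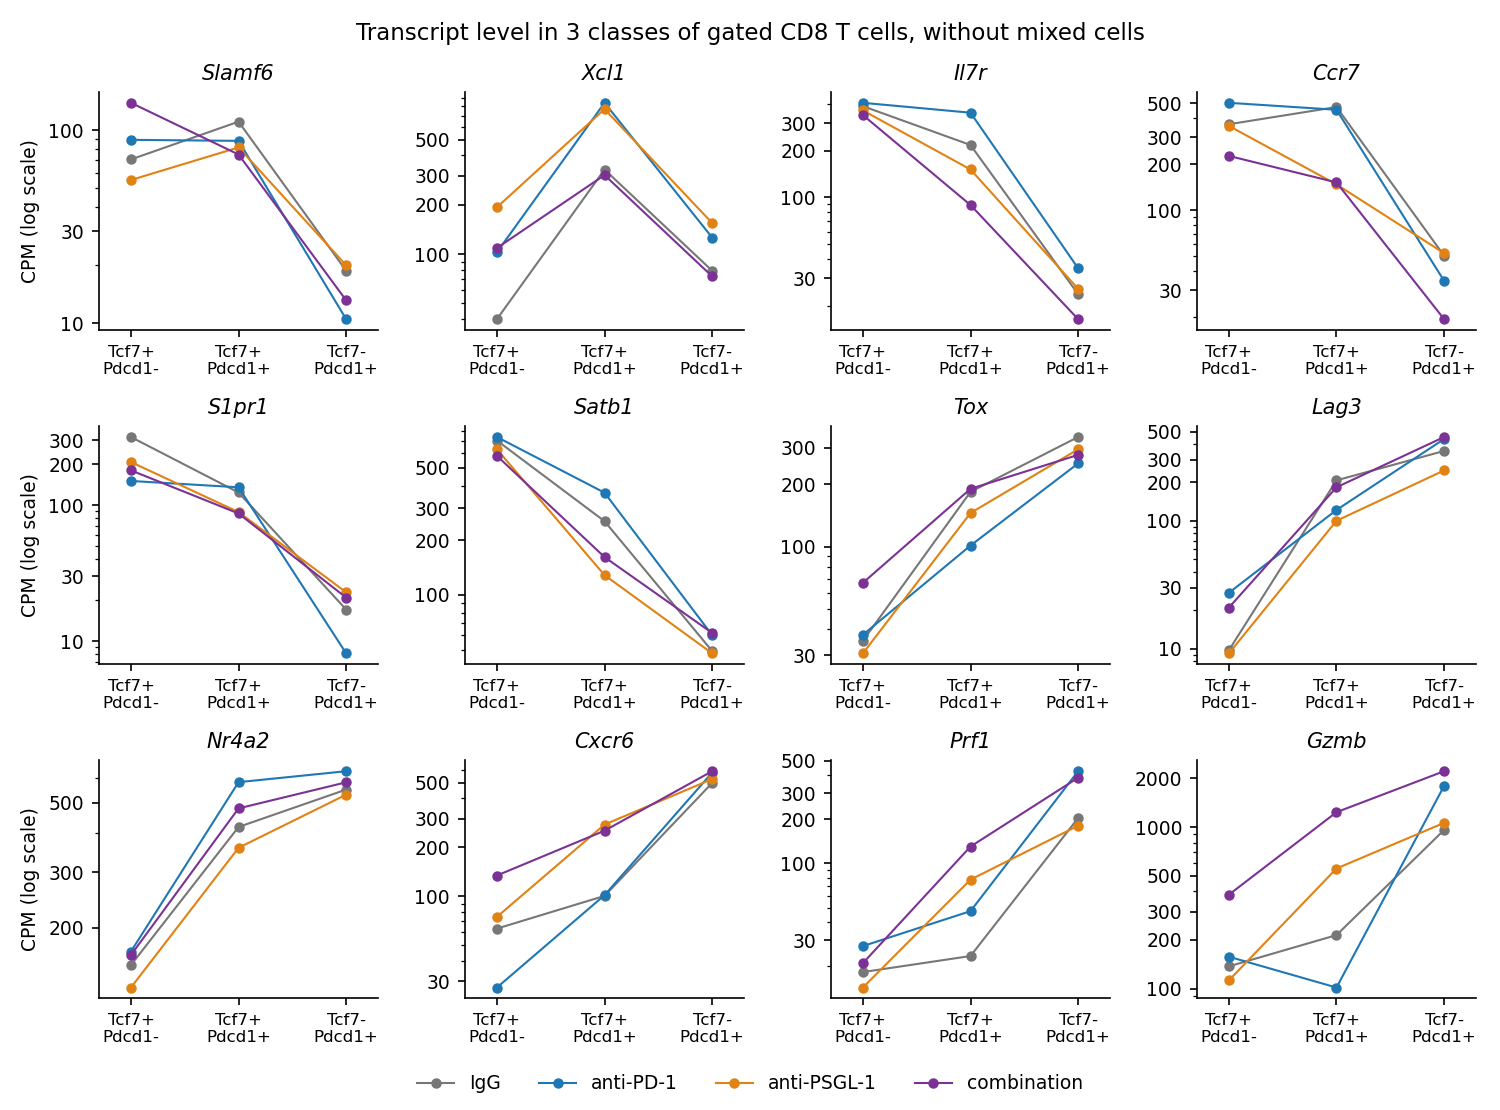
CPM (log scale, its range set per gene) of 12 genes in Tcf7+ Pdcd1-, Tcf7+ Pdcd1+ and Tcf7- Pdcd1+ CD8 T cells, without mixed cells; each line joins the 3 classes of 1 library. Xcl1 is highest in the Tcf7+ Pdcd1+ class, which in the combination rests on 1 cell with 87 of 126 UMIs, Satb1 is lower and Tox and Lag3 are higher at each step along the row, and Gzmb of the anti-PD-1 library has its lowest value, 101 CPM, in the Tcf7+ Pdcd1+ class.

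**Figure D4:**
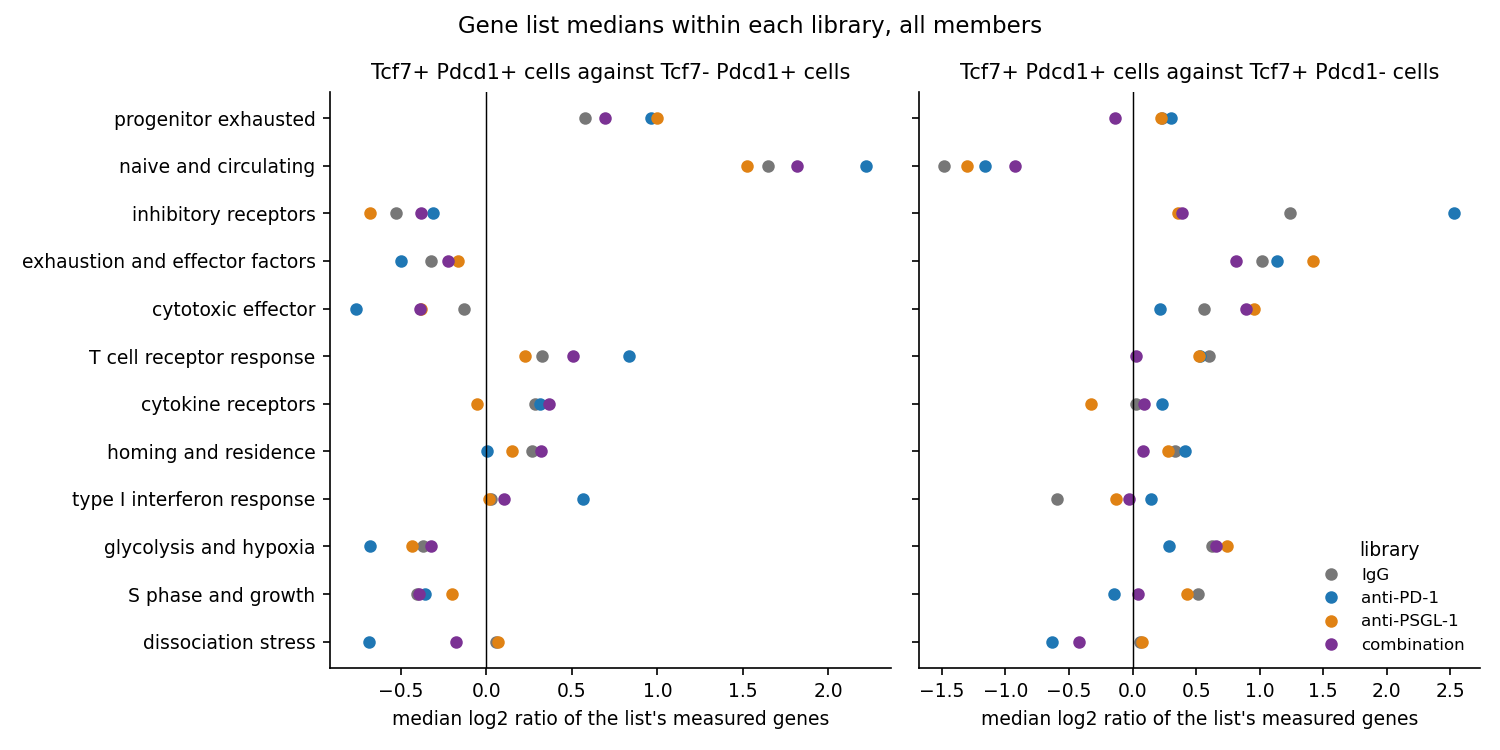
Median log2 ratio of 12 gene lists in Tcf7+ Pdcd1+ cells against Tcf7- Pdcd1+ cells (left) and against Tcf7+ Pdcd1- cells (right), 1 point per library, all cells included. The naive and circulating list lies above 0 on the left and below 0 on the right in all 4 libraries, and the glycolysis and hypoxia list the other way round.

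Levels were also read by the number of Tcf7 UMIs. Among Pdcd1+ CD8 T cells, Slamf6 stood at 17.4, 55.8 and 96.9 CPM in IgG cells with 0, 1 and at least 2 Tcf7 UMIs. The corresponding levels were 10.6, 36.6 and 98.4 CPM in the anti-PD-1 library, 17.4, 50.7 and 68.6 CPM in the anti-PSGL-1 library, and 12.0, 74.7 and 74.8 CPM in the combination. Cells just inside the threshold were thus already apart from those just outside, and in the combination a higher count added nothing. Without mixed cells Slamf6 stood at 18.7, 95.2 and 122 CPM with IgG and at 10.5, 49.4 and 134 CPM with anti-PD-1. With anti-PSGL-1 it then stood at 20.0, 77.1 and 86.7 CPM. Havcr2 was lower with more Tcf7, at 121, 76.4 and 8.81 CPM in IgG cells and 145, 9.15 and 0 CPM in anti-PD-1 cells. It stood at 136, 55.1 and 49.4 CPM in anti-PSGL-1 cells and at 139, 90.4 and 37.4 CPM in those of the combination. Prf1 stood at 173, 88.1 and 52.8 CPM with IgG, 176, 74.9 and 46.7 CPM with anti-PSGL-1 and 397, 165 and 74.8 CPM with the combination. Under anti-PD-1 it did not fall past the first step, at 412, 36.6 and 49.2 CPM, and in IgG without mixed cells it stood at 204, 7.93 and 34.8 CPM. Il7r was higher at 1 Tcf7 UMI than at 0 in each library, but a higher count did not add to it in most: at 1 UMI the 4 libraries had 150, 348, 159 and 94.3 CPM, and at 2 or more 159, 295, 121 and 81.1 CPM. In IgG cells without mixed ones it stood at 278 and 174 CPM. There were 67, 18, 58 and 36 cells at 1 UMI and 36, 11, 41 and 23 at 2 or more. Without mixed cells 28, 16, 47 and 36 were left at 1 UMI and 30, 9, 35 and 23 at 2 or more. Mixed cells thus weighed most on the IgG cells with 1 Tcf7 UMI.

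The Tcf7+ Pdcd1+ cells were not uniform. UMIs of 3 or more of 7 naive cell genes (Lef1, Ccr7, S1pr1, Klf2, Il7r, Dapl1 and Satb1) were found in 57 of 103 (55.3%), 20 of 29 (69.0%), 51 of 99 (51.5%) and 21 of 59 (35.6%). Without mixed cells the shares were 70.7% (57.3 to 81.9), 64.0% (42.5 to 82.0), 47.6% (36.4 to 58.9) and 35.6% (23.6 to 49.1), lowest in the combination, whose interval did not overlap that of IgG. In the same cells thinned to 2000 UMIs the shares were 36.2% (24.0 to 49.9), 36.0% (18.0 to 57.5), 16.0% (8.83 to 25.9) and 8.62% (2.86 to 19.0), again lowest in the combination, with no overlap with the interval of IgG; this reading was added after seeing the data. Slamf6 did not follow the split: without mixed cells it stood at 109, 98.8, 94.1 and 74.0 CPM in cells with 3 or more naive genes and at 113, 70.4, 68.4 and 75.3 CPM in the others. Tox stood at 138, 121, 132 and 154 CPM in the cells with 3 or more naive genes against 294, 70.4, 160 and 217 CPM, lower in every library but anti-PD-1, whose values rest on 11 and 4 UMIs in 16 and 9 cells. Ccl5, a chemokine of effector and memory CD8 T cells, was at 1693, 3920, 6159 and 6729 CPM against 5094, 5018, 5996 and 12071 CPM, and the anti-PSGL-1 values were alike.

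Pairs of genes within single cells are given as a description, since the cells share depth and library, and values summed over libraries also carry the differences between them. Over the 224 cells without mixed ones, Lag3 was detected in 55.1% of the 98 cells with Tox and in 19.8% of the rest, with the same direction in each library. Gzmb was detected in 60.9% of the 87 cells with Gzmk and in 26.3% of the rest, but in IgG in 14.3% against 21.6%, where 7 cells had Gzmk. Gzmk was found in 20.2% of the 84 cells with Ccr7 and in 50% of the rest, and Cxcr6 in 27.4% and 52.1%, both lower with Ccr7 in each library. Xcl1 was detected in 48.8% of the cells with Ccr7 and 20% of those without, higher in each library. Cxcr6 and Gzmk had no common direction: Cxcr6 was detected in 14.3%, 28.6%, 47.2% and 56.8% of the cells with Gzmk against 29.4%, 27.8%, 52.2% and 50% of the rest. Tox was detected in 50% of the 76 Slamf6+ cells and 40.5% of the rest, but in the combination in 50% against 56.8%. Havcr2 was detected in 6.58% of Slamf6+ cells against 16.2% of the rest, and in no cell of anti-PD-1. With mixed cells included, the pairs with Ccr7 lost their common direction for Gzmk and Cxcr6. Gzmk was then detected in 17.5% of IgG cells with Ccr7 and 17.4% of the rest. For Cxcr6 the values were 35.1% and 23.9% in IgG and 54.8% and 54.4% under anti-PSGL-1.

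Treatment was compared within the Tcf7+ Pdcd1+ cells as ratios of summed counts, and the 3 comparisons with IgG share the IgG library. With IgG holding most of the mixed cells, values are given first without them (58, 25, 82 and 59 cells). A gene was measured if it reached 50 CPM in either library of a comparison, and counted if its ratio passed 1.5-fold. A gene below 50 CPM with IgG was thus measured only where the treated library was high, and the reverse holds for genes low in the treated library. For the combination, 501 of 2850 genes (17.6%) were higher and 274 (9.61%) lower than with IgG without mixed cells, and 413 (14.3%) and 370 (12.8%) of 2890 with them. For anti-PD-1 the counts were 559 (19.4%) and 481 (16.7%) of 2888, and with mixed cells 379 (13.2%) and 450 (15.7%) of 2871. For anti-PSGL-1 they were 266 (9.73%) and 350 (12.8%) of 2734, and with mixed cells 128 (4.73%) and 257 (9.5%) of 2704. Without mixed cells the selected cells held 298668, 147864, 528934 and 414817 UMIs in the 4 libraries. The cut asks for no interval, and with fewer UMIs counting error alone carries more genes past it, so these counts do not rank the treatments. Counts within lists are read against these percentages.

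Cytotoxic genes were higher with the combination. Of 19 measured, 13 passed 1.5-fold upward and 0 downward without mixed cells, with a median log2 ratio of 0.87 against 0.11 for all genes; with mixed cells 10 were higher and 3 lower. Gzmb (ENSMUSG00000015437, chromosome 14, 56258838 to 56262260) stood at 214, 101, 554 and 1237 CPM without mixed cells, detected in 12 of 58, 7 of 25, 36 of 82 and 34 of 59 cells. The combination was 5.77 times IgG (4.44 to 7.61), and anti-PSGL-1 2.59 times (1.97 to 3.44). With mixed cells these ratios were 4.31 and 1.59. With the whole rule applied to cells thinned to 2000 UMIs, mixed cells included, they were 3.12 and 0.893. These rested on 10 combination, 28 anti-PSGL-1 and 35 IgG cells, and the anti-PSGL-1 ratio lay only a little below 1. Anti-PD-1 lay below IgG at 0.473 (0.251 to 0.840), on 15 UMIs. Gzmk stood at 53.6, 162, 151 and 256 CPM, a ratio of 4.77 (2.81 to 8.65) for the combination; 13 of the 24 anti-PD-1 UMIs lay in 1 cell. Ccl5 stood at 2699, 4342, 6078 and 9809 CPM, and the combination was 3.63 times IgG (3.37 to 3.92). Macrophages carry Ccl5 as well, in 16.6%, 32.6%, 22.0% and 28.9% of cells. In cells thinned to 2000 UMIs, Gzmk was detected in 6.90%, 28.0%, 24.7% and 41.4% and Gzmb in 17.2%, 16.0%, 37.0% and 46.6%, so the combination was highest at equal depth too. Cxcr6 stood at 100.4, 101, 276 and 253 CPM, higher in both libraries given anti-PSGL-1.

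The same genes in Tcf7- Pdcd1+ cells without mixed cells stood at 959, 1799, 1062 and 2218 CPM for Gzmb, at 189, 114, 173 and 248 CPM for Gzmk and at 8368, 9629, 9621 and 14614 CPM for Ccl5. The combination was thus highest there as well, and Gzmb of anti-PD-1 lay near it in that class while it was lowest in the Tcf7+ Pdcd1+ cells. Whether the classes differed in their response was not tested, because each is 1 library per group.

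Genes induced by interferon were higher in both libraries given anti-PD-1. Of the type I interferon list, 9 of 10 measured were past 1.5-fold and 0 lower under anti-PD-1 (median log2 1.68), and 9 of 9 under the combination (median 2.04). With mixed cells the counts were 11 of 11 and 7 of 10, with medians of 1.25 and 1.07. Under anti-PSGL-1, 2 of 5 measured were higher and 0 lower, with a median of 0.18. Igtp, an interferon-induced GTPase, stood at 30.1, 216, 70.0 and 219 CPM, a ratio to IgG of 7.18 (3.35 to 17.1) for anti-PD-1 and 7.28 (3.67 to 16.4) for the combination. Ifi47, of the same family, stood at 53.6, 284, 96.4 and 234 CPM. Isg15, encoding a ubiquitin-like antiviral protein, stood at 36.8, 203, 47.3 and 198 CPM, and 21 of the 82 combination UMIs lay in 1 cell. Igtp and Isg15 lay below 50 CPM with IgG. Genes of this kind enter a comparison only through the treated library, so the list counts and medians above are partly set by that filter. In Tcf7- Pdcd1+ cells Igtp stood at 50.5, 102, 62.8 and 195 CPM and Isg15 at 73.5, 146, 63.3 and 144 CPM, in the same order for the pairs with and without anti-PD-1.

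Naive cell genes were lower with anti-PSGL-1 and with the combination. Without mixed cells 6 of 11 measured were lower and 0 higher in each, with medians of -0.98 and -0.66; with them 4 of 11 and 5 of 11 were lower. Ccr7 stood at 472, 453, 147 and 152 CPM, ratios to IgG of 0.312 (0.234 to 0.415) for anti-PSGL-1 and 0.322 (0.235 to 0.436) for the combination. Over all cells the anti-PSGL-1 value was above IgG, at 533 against 402 CPM. Il7r (ENSMUSG00000003882, chromosome 15, 9505788 to 9530176) stood at 218, 352, 151 and 89.2 CPM, highest under anti-PD-1 with a ratio of 1.62 (1.10 to 2.36) and lowest under the combination with 0.410 (0.266 to 0.623). Its detection in macrophages was also highest under anti-PD-1, at 32.1% of cells, and any part of macrophage RNA in these values was not tested. Thinned to 2000 UMIs, Il7r was detected in 29.3%, 40%, 25.9% and 8.62% of cells and Ccr7 in 41.4%, 28.0%, 23.5% and 15.5%. Ikzf2, encoding the factor Helios, stood at 680, 331, 329 and 195 CPM, below IgG in every treated library. Dapl1 stood at 358, 60.9, 62.4 and 67.5 CPM, also highest with IgG.

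Of the genes by which the progenitor and exhausted states are recognised, Slamf6 stood at 110.5, 87.9, 81.3 and 74.7 CPM without mixed cells, with ratios to IgG of 0.796 (0.384 to 1.55), 0.736 (0.457 to 1.20) and 0.676 (0.401 to 1.14). Every interval included 1, and a difference of the sizes within them was not detectable at this depth. With the whole rule applied to cells thinned to 2000 UMIs, mixed cells included, the ratios lay above 1, at 2.62, 2.19 and 1.75. The thinned ratios rested on 35 IgG cells against 10, 28 and 10 treated cells. No direction is therefore given for Slamf6. Tox stood at 184, 101, 146 and 190.4 CPM, with ratios of 0.551 (0.289 to 0.989), 0.791 (0.552 to 1.14) and 1.03 (0.724 to 1.49). Lag3 stood at 208, 122, 100.2 and 183 CPM, lowest under anti-PSGL-1 at 0.483 (0.328 to 0.708) of IgG. Xcl1 stood at 328, 839, 768 and 304 CPM, but it was detected in 22 of 58, 9 of 25, 29 of 82 and 9 of 59 cells, with 55 and 198 UMIs in the highest cell of the single antibodies. Without the highest cell of each library it stood at 299, 517, 407 and 97.5 CPM. The progenitor list had medians of -0.25, -0.25 and 0.01. The dissociation stress list showed how far mixed cells can carry a list: its median for the combination against IgG was -1.68 with them and 0.16 without.

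Set against the single antibodies, the combination differed on different genes. Against anti-PD-1 it was higher in Gzmb, at 12.2 times (7.32 to 21.9), and lower in Il7r, at 0.254 (0.162 to 0.394), and Ccr7, at 0.335. Against anti-PSGL-1 it was higher in Gzmb, at 2.23 times (1.93 to 2.59), in Isg15, at 4.18 times, and in Lag3, at 1.83 times. The interferon list had a median log2 ratio of -0.34 against anti-PD-1 and of 1.40 against anti-PSGL-1, and the cytotoxic list medians of 0.65 and 0.58. Slamf6 had ratios of 0.850 (0.432 to 1.77) and 0.919 (0.560 to 1.49). The combination thus stood near anti-PD-1 in interferon genes, near anti-PSGL-1 in Ccr7, and above both in cytotoxic genes.

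**Figure D5:**
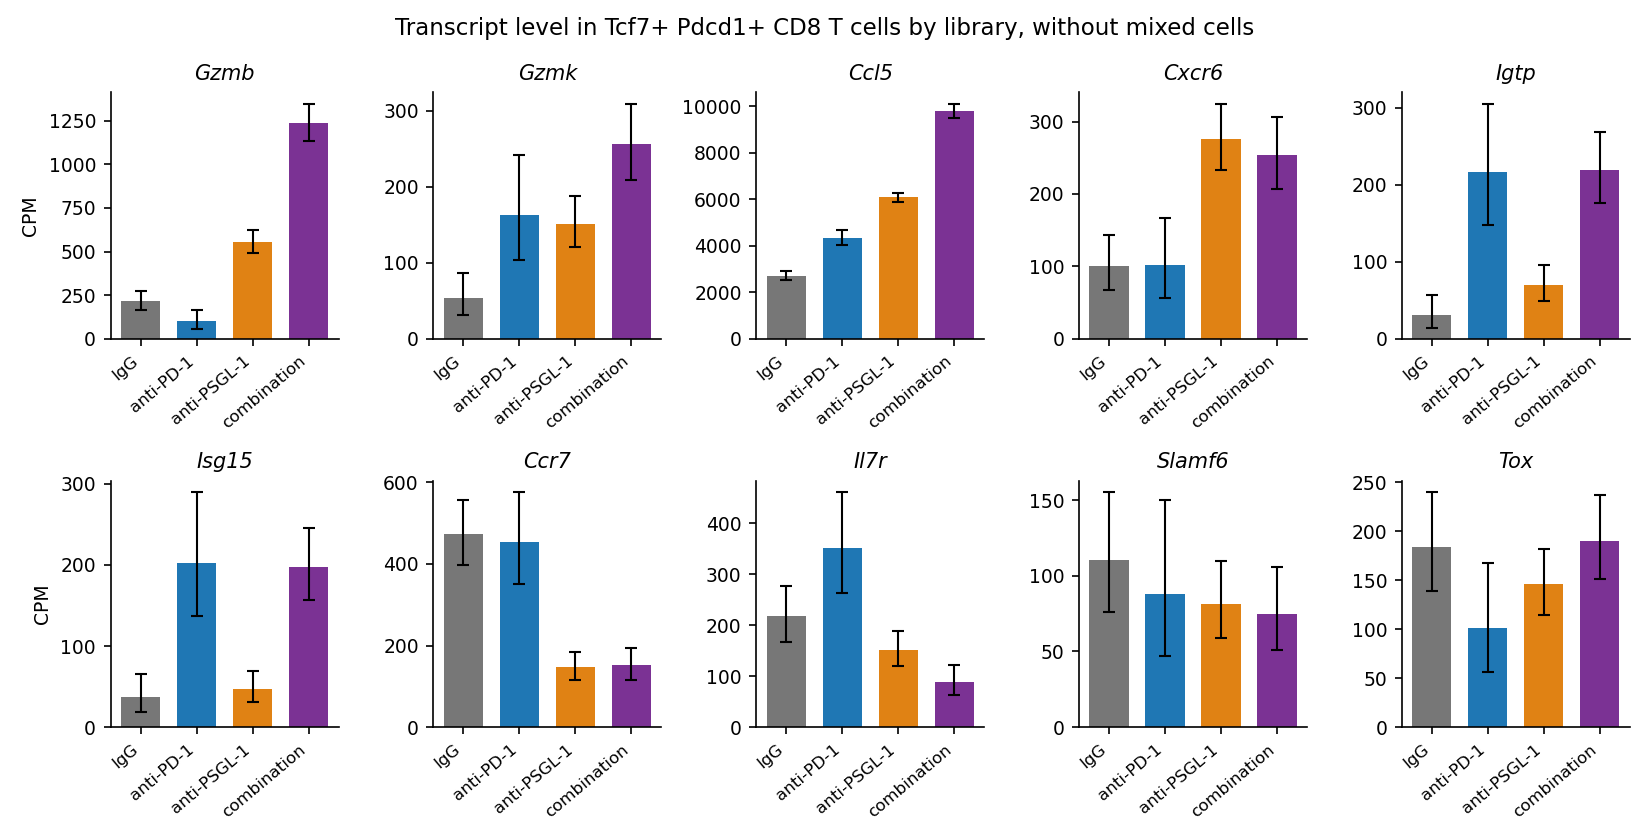
CPM of 10 genes in Tcf7+ Pdcd1+ CD8 T cells without mixed cells, 1 bar per library; error bars are exact 95% Poisson intervals, which cover counting error only. Gzmb, Gzmk and Ccl5 are highest with the combination, Igtp and Isg15 with anti-PD-1 and the combination, Ccr7 in the libraries without anti-PSGL-1, and the intervals of Slamf6 overlap in all 4 libraries.

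Promoters were searched for the core motif bound by TCF-1, spelled CTTTGAA or CTTTGAT on either strand, in the 250 bases before each RefSeq gene start (GRCm38.p6). The search did not cover every chromosome, and a gene was counted if any of its promoters held the motif. The motif was present in 8.63% of the 27025 genes searched. It was present in 3 of 44 matched genes higher than in Tcf7- Pdcd1+ cells (6.82%) and in 3 of 31 of the lower ones (9.68%). Of the 8 genes that led the higher list 5 were matched to the table, and of these Emb held it, and that window is shown because it is the match among the leading genes. The motif is in capitals, on the strand opposite to the gene and 156 bases before its RefSeq start. GENCODE places Emb at 117208536 to 117274415 on chromosome 13, so the window lies inside the gene by that annotation.
Emb, chr13:117220406-117220434: tcacctgtcacATCAAAGtaaatgtgtga
Dapl1, Il7r, Slamf6 and Xcl1 held no match in this window. A match is a run of letters and was not tested as a binding site.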

How the data were processed

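Barcode matrices of whole UMI counts, not normalised, were deposited for each library and cover 27998 genes. The submitters' processing notes name Cell Ranger 3.1.0, FastQC and the build mm10. Barcodes needed 300 or more genes, a mitochondrial share of 10% or less and no more than 60000 UMIs (9465, 5238, 6869 and 4382 remained). CPM is the count of a gene summed over a class within a library, scaled to the UMI total of that class. Intervals are exact Poisson, Clopper-Pearson binomial or conditional ratio intervals at 95%. A count of 0 entered ratios at a floor of 3 counts per library. The doublet caller Scrublet (scanpy 1.11.5) had not worked at its own threshold (1, 75, 0 and 5 calls), so doublets stayed in the main values; taking out the highest scores, at 0.8% per 1000 cells, removed 13, 4, 9 and 4 of the selected cells.

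Genes were named by rank: the first 8 each way within libraries, the first 5 each way between libraries, and up to 3 per list each way. The members and lists were chosen with earlier results of these data known. One gene of the naive and circulating list is not reported here, and the count of naive genes per cell uses 7 others of that list. The code was tested on simulated data. Python 3.11.15, numpy 2.4.6, scipy 1.17.1, pandas 2.3.3 and matplotlib 3.10.9 were used, and gene positions come from GENCODE on GRCm38.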

Additional observations from a re-analysis of the deposited data

How the results depend on the processing

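With 1 library per group nothing here has a replicate check, and the anti-PD-1 library rests on 29 cells. Of the summary values recomputed under alternatives, 72 kept their size and 54 moved; of the single gene values 382 kept it, 120 moved and 5 reversed. Detection of 2 sparse genes limits the shares, which moved with every change of depth or threshold. No paired analysis was possible because each group is 1 library.

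The shares of gated cells (IgG, anti-PD-1, anti-PSGL-1, combination) were 2.21%, 1.20%, 2.23% and 0.754% when cells were thinned to 2000 UMIs, and 4.61%, 1.80%, 4.33% and 3.98% at 4000 UMIs. They were 1.39%, 0.898%, 2.13% and 1.67% with at least 2 UMIs of both genes, and 1.39%, 1.20%, 2.84% and 2.16% with Slamf6 asked for as well. With the gate at full depth and only Tcf7 and Pdcd1 thinned they were 2.23%, 1.39%, 2.90% and 1.00%, and 2.41%, 1.55%, 3.40% and 1.08% without mixed cells. Without a limit on dividing and granzyme-rich cells they were 6.13%, 2.96%, 8.82% and 3.94%. The combination interval then lay below that of IgG, while the 2 overlapped with the limit. The limit kept 1655, 668, 1125 and 1017 of 2087, 1282, 1565 and 1826 cells, a smaller part under anti-PD-1 and the combination. The cells on which the shares are based thus differed by library in how many the limit took out.

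Against Tcf7- Pdcd1+ cells, the 54 higher genes became 82 without mixed cells, 101 at a minimum of 20 CPM and 21 at 2-fold, and 59 to 83 when a library was left out (83 without anti-PSGL-1). The 39 lower genes became 65, 62 and 8, and 37 to 72 (72 without IgG). Against Tcf7+ Pdcd1- cells, the 67 higher genes became 42 when scaled by the median of gene ratios, 130 at 20 CPM and 24 at 2-fold, and 92 to 162 (114 without anti-PD-1, 162 without the combination). The 14 lower genes became 5 in thinned cells, 23 by gene ratios, 37 at 20 CPM and 4 at 2-fold, and 18 to 36 (31 without anti-PD-1, 26 without anti-PSGL-1, 36 without the combination). With a library left out a gene has to pass in fewer libraries, which by itself lets more genes through. The rise of these counts therefore does not show that the lists rest on a given library.

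Ratios to IgG over all cells moved as follows. Slamf6 under anti-PD-1 went from 0.919 to 2.62 in thinned cells. Under anti-PSGL-1 it went from 0.812 to 2.19 in thinned cells, and under the combination from 1.03 to 1.75 in thinned cells. Gzmk went from 1.75 to 3.19 under anti-PD-1 with the highest Scrublet scores removed, 3.03 without mixed cells and 0.972 without mixed cells and members holding 3 or more naive genes, from 1.87 to 3.75 in thinned cells and 2.82 without mixed cells under anti-PSGL-1, and from 3.92 to 5.88 under the combination with the highest Scrublet scores removed. Of the ratios whose interval excluded 1, 4 reversed in thinned cells: Ccl5 under anti-PD-1 (0.473), Xcl1 (0.972) and Gzmb (0.893) under anti-PSGL-1, and Tox of the combination against anti-PSGL-1 (0.700). Without mixed cells and members holding 3 or more naive genes Ccl5 under anti-PD-1 reversed too (0.985). The cause was not tested, and thinning also reapplies the rule and so changes which cells are members. At 2000 UMIs the members numbered 35, 10, 28 and 10, so thinned ratios rest on few cells. Of the reversed ratios, those of Xcl1 and Gzmb under anti-PSGL-1 lay only a little below 1. Alternatives concerning mixed cells and the 7 naive genes were chosen after seeing the data; the planned set of naive genes is not reported here.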
